A study of Mus musculus with 33 samples.

Results

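Krt25, Krt27, Krt71 and Krt85 are 4 keratin genes of the hair follicle, taken by symbol from the 15273 genes of the deposited table. Their levels in 3 libraries of sorted hair follicle cells were set against their levels in 30 libraries of sorted thymic epithelial cells (TEC). The labels call the skin cells HFC. They were freed with trypsin from shaved dorsal skin of 4-week-old C57BL/6 mice and sorted as positive for Foxn1.EGFP, a fluorescent reporter of the transcription factor Foxn1. All TEC came from wild-type C57BL/6 mice, and thymi were dissociated with Liberase TH and DNase. They comprised embryonic day 15 (E15) and embryonic day 17 (E17) TEC with 2 libraries each. Postnatal day 6 gave the populations labelled mTEC1, mTEC2 and mTEC4 with 2 libraries each. At 6 weeks there were cTEC, mTEC1, mTEC2, mTEC3 and mTEC4 with 4 libraries each, numbered 189, 191, 195 and 196 in the titles. HFC and TEC differed in tissue, reporter genotype and dissociation, and HFC and TEC were not of the same age, so these factors cannot be told apart in any comparison of them. Nothing in the labels ties replicate libraries to different mice, and the p-values below thus reflect the spread among the libraries, possibly technical.

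Hair grows from a matrix of dividing cells whose daughters form concentric layers. The hair shaft lies at the centre, the inner root sheath moulds it, and the companion layer and the outer root sheath enclose them. Keratins are intermediate filament proteins that assemble from a type I and a type II chain, and each layer has its own pairs. Krt25 and Krt27 are type I keratins of the inner root sheath, and Krt71 is a type II keratin of the same sheath that is mutated in the wavy-coated Caracul mouse. Krt85 is a type II hair keratin of the matrix and the forming shaft, and human KRT85 is mutated in a hair and nail dysplasia. Foxn1 is needed for a hair coat as well as for a thymus: mice that lack it, known as nude mice, form hair shafts that bend and break. Medullary TEC are also known to transcribe many genes of peripheral tissues at low levels.

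Because Krt25 and Krt27 had like profiles over the 3 HFC libraries, the bases upstream of the inner root sheath keratins are shown. They are the 250 bases before the annotated RefSeq start of each gene on GRCm38.p6, all on the minus strand, at chr11:99322952-99323201 for Krt25, chr11:99351119-99351368 for Krt27 and chr15:101743098-101743347 for Krt71. Capitals mark TATAAA, the letters of a TATA box, and GATAA, the core that GATA factors bind, both on the strand of the gene.
Krt25: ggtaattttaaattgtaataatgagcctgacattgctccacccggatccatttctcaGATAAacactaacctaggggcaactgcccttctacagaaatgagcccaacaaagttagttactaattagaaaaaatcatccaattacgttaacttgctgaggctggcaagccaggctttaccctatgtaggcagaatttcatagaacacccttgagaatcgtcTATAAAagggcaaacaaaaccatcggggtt
Krt27: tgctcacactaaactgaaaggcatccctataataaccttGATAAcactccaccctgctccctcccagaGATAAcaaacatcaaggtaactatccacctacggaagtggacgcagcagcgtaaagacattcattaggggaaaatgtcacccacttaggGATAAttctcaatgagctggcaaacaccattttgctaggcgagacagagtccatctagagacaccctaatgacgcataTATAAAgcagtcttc
Krt71: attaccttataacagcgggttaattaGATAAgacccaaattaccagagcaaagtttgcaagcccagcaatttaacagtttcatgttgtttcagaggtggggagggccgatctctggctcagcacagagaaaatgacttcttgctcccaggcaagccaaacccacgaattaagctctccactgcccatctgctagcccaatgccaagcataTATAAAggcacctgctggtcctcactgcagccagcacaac
Each of the 3 windows held 1 TATAAA, at bases -30 to -25 for Krt25, -15 to -10 for Krt27 and -40 to -35 for Krt71, counted back from the start. For Krt27 and Krt71 the GENCODE M21 starts, at 99351104 and 101743109, differ from the RefSeq starts, so these positions depend on the annotation used. GATAA occurred 1 time for Krt25, 3 times for Krt27 and 1 time for Krt71. Both strands were searched, and no match lay on the other strand or overlapped another. The LEF/TCF core CAAAG had 1 match for Krt25, 0 for Krt27 and 1 for Krt71. The letters GACGC, a core bound by Foxn1, had 2 matches for Krt27 and 0 for Krt25 and Krt71. Among 32851 RefSeq windows of the same length, 12.4% held TATAAA on either strand, 22.6% GATAA, 48.6% CAAAG and 22.6% GACGC. The motifs were chosen after the sequences were seen, and a match is a description of letters only.

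RNA was measured by bulk MARS-seq, which sequences transcript 3' ends and tags each molecule with a unique molecular identifier (UMI) so that molecules are counted once. Library totals ran from 520844 to 679168 UMIs in HFC and from 98670 to 1732688 in TEC, and 10146 to 10609 genes were detected per library in HFC against 8828 to 14854 in TEC. A level in CPM is the number of UMIs of a gene in 1000000 UMIs of its library. A gene with 0 UMIs can still stand at up to 3 UMIs of the total, which is 4.42 to 5.76 CPM in HFC and 1.73 to 30.4 CPM in TEC. These limits and the Poisson intervals below cover counting error only. The skin origin of HFC was visible in its genes. The 10 listed thymic epithelial genes summed to 26.5 to 56.0 CPM in HFC against 7149 to 36319 CPM in TEC. Psmb11, Pax1 and Pax9 had 0 UMIs in HFC. Of the 10, 9 were called lower in HFC, where 18.4% of all genes tested were called lower. The outer root sheath and basal keratinocyte genes summed to 109799 to 133837 CPM in HFC against 1781 to 14545 CPM in TEC.

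The 3 inner root sheath keratins were much more abundant in HFC than in TEC, whereas the hair shaft keratin Krt85 was close to the detection limit in HFC. Krt25, Krt27 and Krt71 averaged 189 to 223 CPM in HFC and 2.22 to 4.94 CPM in TEC. Krt85 had 4 UMIs in all HFC libraries together. In the limma model over all 33 libraries, 3 of the 4 keratins passed an adjusted p below 0.05 as higher in HFC and 0 as lower, where 4.86% of the 14183 genes tested were called higher, 18.4% lower and 23.3% either way. limma estimates the spread of a gene over all groups together, most of them TEC groups where these keratins were near 0. Its SE and p thus do not measure the spread within HFC alone, which is described below. The median log2 difference of the 4 keratins was 5.55, against -0.73 over all genes tested. Median of ratios scaling put the median of all genes at -0.43 and the calls at 1189 higher and 1726 lower in HFC, in place of 689 and 2615. Krt25, Krt27 and Krt71 then stood at 5.92, 6.34 and 6.19 log2 units and were called as well. In bulk libraries, fewer cells of a type and less RNA per cell cannot be told apart.

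**Figure D1:**
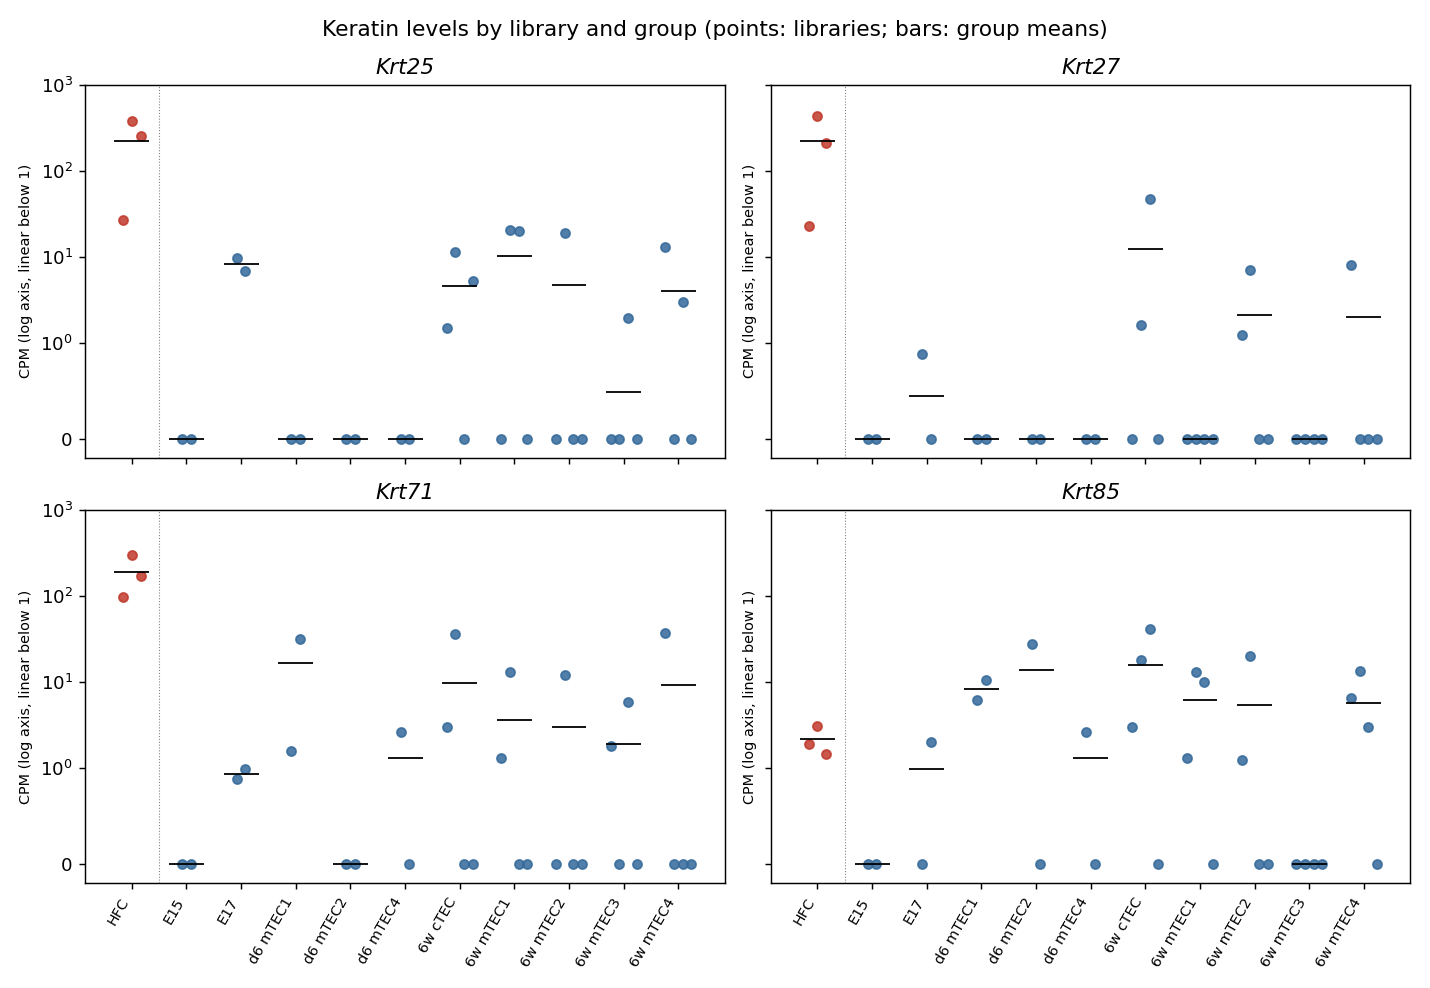
Level of each keratin in CPM (log axis, linear below 1) in the HFC libraries (red) and the TEC libraries (blue) by group. Points are libraries and bars are group means. For Krt25 and Krt71 every HFC point lies above every TEC point, for Krt27 the library labelled 6-week cTEC 195 at 47.6 CPM lies above HFC library 1 at 23.0 CPM, and for Krt85 the groups overlap.

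Krt25 lies at chromosome 11, 99315516 to 99322951, on the minus strand (GENCODE M21, GRCm38), in the cluster of type I keratin genes. In humans, KRT25 is mutated in a recessive form of woolly hair. It had 14, 242 and 174 UMIs in HFC libraries 1, 2 and 3, which are 26.9, 378 and 256 CPM. In the 30 TEC libraries the lowest and the median were 0 CPM and the highest was 20.8 CPM, with 78 UMIs in 11 libraries. Every HFC library stood above every TEC library, HFC library 1 by the smallest margin. The means were 220 ± 178 CPM in HFC (SD, n = 3) and 3.77 ± 6.62 CPM in TEC (SD, n = 30), a ratio of 58.3 that became 37.5 without HFC library 2. On the log2(normalized UMI + 1) scale, where changes of rare transcripts come out too small, the difference was 5.42 ± 0.82 (SE; limma, adjusted p = 1.09e-05). It was 6.57 without HFC library 1 and 4.70 without HFC library 2, and the test was passed each time.

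Krt27 lies in the same cluster at chromosome 11, 99345565 to 99351104, on the minus strand, with Krt26, which was not analysed here, between it and Krt25. Krt27 had 12, 280 and 142 UMIs in HFC libraries 1, 2 and 3, which are 23.0, 437 and 209 CPM. In TEC the lowest and the median were 0 CPM and the highest was 47.6 CPM, with 28 UMIs in 6 of 30 libraries. The highest TEC value came from 8 UMIs in the library labelled 6-week cTEC 195 and exceeded HFC library 1, while the other 29 TEC libraries lay below all HFC libraries. The means were 223 ± 207 CPM in HFC and 2.22 ± 8.78 CPM in TEC (SD, n = 3 and n = 30). Their ratio of 101 became 52.3 without HFC library 2 and 341 without 6-week cTEC 195. The log2 difference was 5.83 ± 0.72 (SE; limma, adjusted p = 4.98e-07), and it was 7.04 without HFC library 1 and 4.97 without HFC library 2. DESeq2 on the recovered UMIs gave 8.16 with an adjusted p of 0.0927, so the call was lost with that tool. Of 471 runs of 30 bases in the last 500 bases of the Krt27 transcript, 57 also occurred in Krt25 or Krt28, so part of its 3' reads could have been assigned to a neighbour. For Krt25 and Krt71 0 of 471 were shared.

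Krt71, the type II member of the sheath, lies at chromosome 15, 101733949 to 101743109, on the minus strand between Krt5 and Krt72. It had 51, 192 and 115 UMIs in HFC libraries 1, 2 and 3, which are 97.9, 300 and 169 CPM. In TEC the lowest and the median were 0 CPM and the highest was 37.2 CPM, with 119 UMIs in 13 of 30 libraries. All HFC libraries stood above all TEC libraries, with the widest gap of the inner root sheath keratins described here. The means were 189 ± 102 CPM in HFC and 4.94 ± 10.7 CPM in TEC (SD, n = 3 and n = 30), a ratio of 38.3. The log2 difference was 5.68 ± 0.88 (SE; limma, adjusted p = 1.63e-05).

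Krt85, the hair shaft keratin, had 1, 2 and 1 UMIs in HFC libraries 1, 2 and 3, which are 1.92, 3.12 and 1.47 CPM. In TEC it ranged from 0 through a median of 1.28 to 41.6 CPM, with 82 UMIs in 16 of 30 libraries. The HFC libraries therefore lay inside the range of TEC, and HFC library 3, the lowest, stood above 16 TEC libraries, 14 of them at 0. The means were 2.17 ± 0.852 CPM in HFC and 6.03 ± 9.88 CPM in TEC (SD, n = 3 and n = 30). The log2 difference was -0.16 ± 0.82 (SE), with a 95% interval of -1.83 to 1.52 and an adjusted p of 0.899 in limma. Its sign turned with the scaling, to 0.12 under median of ratios scaling. Although it is named here with the sheath keratins, Krt85 thus stood under the level of 3 UMIs in every HFC library.

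Against each age of TEC alone the pattern of the members was alike, and these comparisons share the 3 HFC libraries. For Krt25 the log2 difference was 5.07 against embryonic, 6.33 against day 6 and 5.21 against 6-week TEC. For Krt27 it was 6.09, 6.23 and 5.66 in the same order of ages. For Krt71 it was 6.31, 5.54 and 5.60. The 3 sheath keratins thus passed in limma at every age of TEC. The adjusted p of these 9 values in limma lay between 1.17e-06 and 0.000615. DESeq2 on the recovered UMIs lost the call of Krt27 at each age, with adjusted p of 0.113 against embryonic, 0.121 against day 6 and 0.134 against 6-week TEC. Krt85 gave 0.87, -0.59 and -0.23, with adjusted p between 0.640 and 0.849. The share of all genes called higher in HFC was 5.37% against embryonic, 4.39% against day 6 and 4.67% against 6-week TEC.

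**Figure D2:**
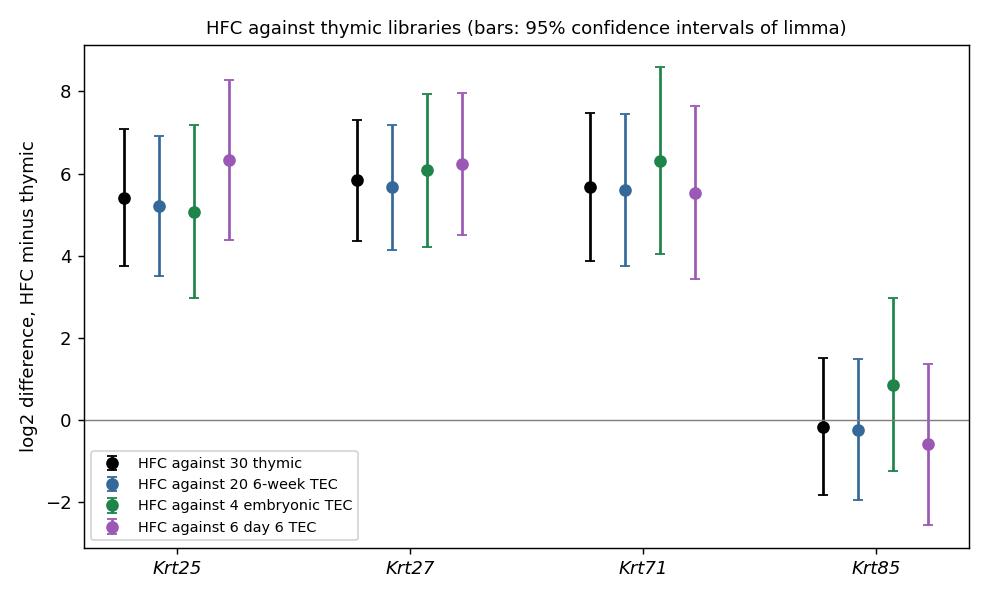
Difference of HFC minus TEC on the log2(normalized UMI + 1) scale for each keratin, against all 30 TEC libraries and against each age. Points are limma estimates and bars their 95% confidence intervals. The intervals of Krt25, Krt27 and Krt71 lie above 0 in all 4 comparisons, and those of Krt85 include 0.

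Within TEC the keratins were at low and scattered levels. E15 TEC had 0 UMIs of all 4 keratins in both libraries, which are among the deepest. E17 TEC had 11 and 7 UMIs of Krt25 (9.72 and 6.95 CPM), 1 and 0 of Krt27, 1 and 1 of Krt71, and 0 and 2 of Krt85. At day 6 there were 0 UMIs of Krt25 and of Krt27 in 6 libraries. With 3 UMIs over their 2541099 UMIs as the floor, 1.18 CPM, the HFC mean was at least 186.52-fold higher for Krt25 and at least 188.87-fold higher for Krt27. Without HFC library 2 these bounds were 119.887 and 98.3. Neither Krt25 nor Krt27 was detected in day 6 TEC at this depth. Krt28, another type I keratin of the sheath, had 11 UMIs in the 2 day 6 libraries labelled mTEC1. At 6 weeks Krt25 and Krt27 occurred together in some libraries and apart in others. In mTEC4 189 there were 18 UMIs of Krt25 and 11 of Krt27, and in mTEC2 191 there were 16 and 6. Each reached its highest TEC level without the other: mTEC1 191 had 11 UMIs of Krt25 and 0 of Krt27. cTEC 195 had 0 of Krt25 and 8 of Krt27, but with 168128 UMIs in all its floor was 17.8 CPM. Krt71 had 20 UMIs at day 6, of which 18 were in library 2 labelled mTEC1 (31.6 CPM). Without that library the day 6 mean of Krt71 was 0.832 CPM in place of 5.95 CPM.

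At 6 weeks the order of the means differed between the keratins, and neighbours in it did not differ beyond their spread. Krt25 averaged 10.3 ± 11.9 CPM in the libraries labelled mTEC1, 4.77 ± 9.54 in mTEC2, 4.58 ± 5.12 in cTEC, 4.03 ± 6.23 in mTEC4 and 0.489 ± 0.977 in mTEC3 (SD, n = 4 each). Krt27 averaged 12.3 ± 23.5 CPM in cTEC, 2.10 ± 3.42 in mTEC2 and 2.01 ± 4.02 in mTEC4, with 0 UMIs in mTEC1 and mTEC3. Krt71 averaged 9.77 ± 17.6 CPM in cTEC, 9.31 ± 18.6 in mTEC4, 3.64 ± 6.44 in mTEC1, 2.98 ± 5.96 in mTEC2 and 1.92 ± 2.77 in mTEC3. Krt85 averaged 15.7 ± 19.0 CPM in cTEC, 6.18 ± 6.53 in mTEC1, 5.76 ± 5.81 in mTEC4 and 5.38 ± 9.94 in mTEC2, with 0 UMIs in mTEC3. The SD exceeded the mean in each of these groups that had a UMI.

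UMIs of the keratins gathered in few TEC libraries. Of 30 TEC libraries 10 had 0 UMIs of any of the 4 genes, with library totals of 175014 to 1732688 UMIs. All 4 keratins were detected together in 3 libraries: 6-week mTEC4 189 with 18, 11, 51 and 9 UMIs of Krt25, Krt27, Krt71 and Krt85, 6-week cTEC 191 with 7, 1, 22 and 11, and 6-week mTEC2 191 with 16, 6, 10 and 17. By the number in the titles, the 6-week libraries numbered 189 held 99 keratin UMIs, those numbered 191 held 117, those numbered 195 held 26 and those numbered 196 held 2. The 5 libraries numbered 196 had 2430725 UMIs in all, against 2299952 in those numbered 191. What the numbers stand for is not given in the labels.

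In HFC, Krt25, Krt27 and Krt71 varied more between libraries than the median gene, Krt25 and Krt27 by far. The highest HFC library held 14.0 times the level of the lowest for Krt25 (95% counting interval 8.21 to 26.1). For Krt27 the ratio was 19.0 (10.7 to 37.1), and for Krt71 it was 3.06 (2.24 to 4.25). Library 2 was the highest and library 1 the lowest for all 3 of them. Over 3654 genes with a mean of 20 or more UMIs in HFC the median ratio was 1.495, and it was 1.49 over the 570 of these called higher in HFC. As a share of all keratin UMIs of a library, Krt25 made up 0.0184%, 0.323% and 0.183% in HFC libraries 1, 2 and 3, so the spread remained within the keratins. Between HFC libraries 2 and 3 alone the ratios were 1.47 for Krt25, 2.09 for Krt27 and 1.77 for Krt71. For Krt85 the ratio of 2.12 had an interval of 0.110 to 125 and says little.

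**Figure D3:**
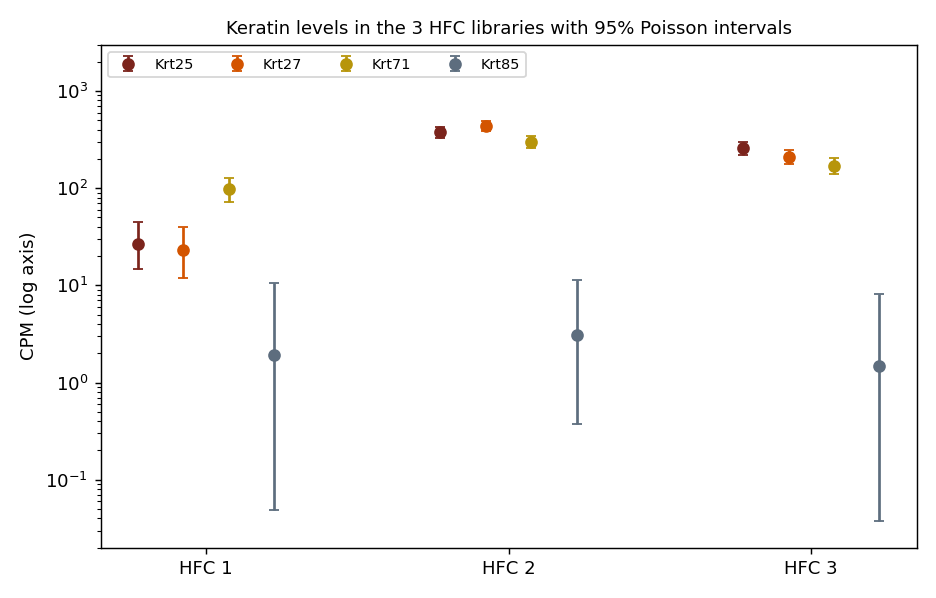
Level of each keratin in CPM (log axis) in HFC libraries 1, 2 and 3, with exact 95% Poisson intervals as bars. Krt25 and Krt27 run from 26.9 and 23.0 CPM in library 1 to 378 and 437 CPM in library 2, Krt71 from 97.9 to 300 CPM, and Krt85 stays at 1.47 to 3.12 CPM.

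Other genes of the skin layers show which of them moved with this spread. Tchh, the trichohyalin that fills inner root sheath and medulla cells, had 8, 186 and 13 UMIs in HFC libraries 1, 2 and 3. Padi3, an enzyme that modifies it, had 4, 42 and 1. Of 9 tested proteins of the inner root sheath and medulla Padi3 alone was called, higher in HFC (log2 difference 2.10, limma adjusted p = 0.0296), while Tchh gave 1.91 (adjusted p = 0.0841). Both were highest in the library where the inner root sheath keratins were highest, but in library 3 they were near library 1, unlike Krt25 and Krt27. Lor, the cornified envelope protein loricrin, was highest in library 1, with 868, 73 and 122 UMIs. The other suprabasal genes did not all run this way. Sbsn, a secreted suprabasal protein, had 5743, 5070.2 and 5535 CPM in HFC libraries 1, 2 and 3, and Krtdap, a keratinocyte differentiation protein, was highest in library 2, at 361, 629 and 244 CPM. The 9 suprabasal genes in the table summed to 13488, 8616 and 8858 CPM. Awat1, a wax synthase of sebaceous glands, had 49, 2 and 0 UMIs. The sebaceous genes did not all run this way either. Mgst1, a listed sebaceous gene that was also called higher in HFC, was lowest in library 1, at 188, 289 and 234 CPM in HFC libraries 1, 2 and 3. The 10 listed sebaceous genes summed to 1117, 610 and 512 CPM in HFC libraries 1, 2 and 3, against 44.1 to 410 CPM in TEC, and 5 of the 10 were called higher and 0 lower in HFC. The 9 dermal fibroblast and papilla genes in the table summed to 24.96, 49.9 and 158 CPM in HFC libraries 1, 2 and 3. Of the 9 tested 3 were called lower and 0 higher in HFC. For all counts of calls in this paragraph, the shares over all genes tested were 4.86% higher and 18.4% lower. The outer root sheath and basal genes summed to 132656, 109799 and 133837 CPM. The part of these cell types in the spread was not tested.

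**Figure D4:**
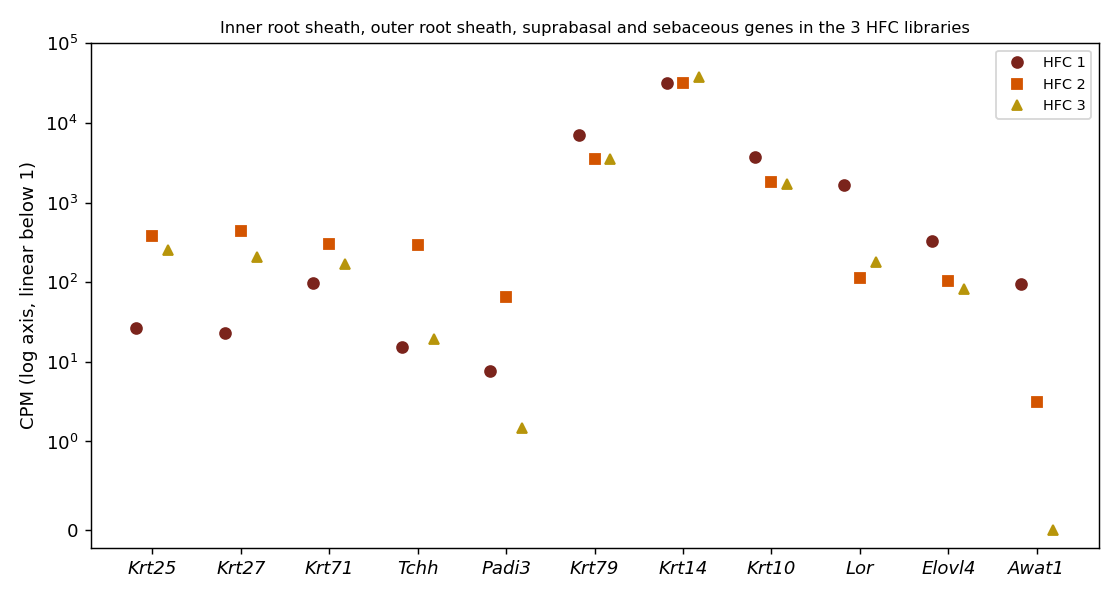
Level in CPM (log axis, linear below 1) of Krt25, Krt27, Krt71 and 8 genes of other skin layers and glands in HFC libraries 1 (circles), 2 (squares) and 3 (triangles). Library 1 is lowest for the 3 keratins and highest for Krt79, Krt10, Lor, Elovl4 and Awat1, while Krt14 differs little between libraries.

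The remaining keratins of the same layers were scarce in HFC. Of 8 listed inner root sheath keratins 6 were in the table and tested. Krt25, Krt27 and Krt71 were the 3 called higher in HFC, where 4.86% of all genes tested were called higher. Krt28, a type I keratin of the sheath next to Krt27, had 6, 1 and 0 UMIs in HFC libraries 1, 2 and 3, a log2 difference of 0.82 (adjusted p = 0.316). Krt72, the type II neighbour of Krt71, had 3, 4 and 6 UMIs and a difference of 1.48 (adjusted p = 0.0852). Krt73 had 0, 7 and 0 UMIs and a difference of 0.33 (adjusted p = 0.735). These p-values are from limma. edgeR called 5 of the 6, adding Krt28 and Krt72, and DESeq2 called 2, Krt25 and Krt71. Over all genes edgeR called 1507 and DESeq2 1449 higher in HFC, where limma called 689.

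Of 16 listed hair shaft keratins 10 were in the table, Krt85 among them. Their sum was 5.89 to 10.9 CPM in HFC, against 0 to 300.1 CPM in TEC with a median of 21.4. limma called 0 of the 9 tested in either direction, where 23.3% of all genes tested were called. Of the 9, 0 had an unadjusted p below 0.05 in limma, and edgeR and DESeq2 also called 0. The median log2 difference of the 9 was -0.998. Krt33b, Krt36, Krt81 and Krt86 had 0 UMIs in every HFC library. Krt84 had 0, 0 and 1 UMIs in HFC, against 267 UMIs in 21 of 30 TEC libraries and up to 193 CPM in TEC, a log2 difference of -1.82 (limma, adjusted p = 0.219). Of 5 keratin-associated protein genes, which encode the matrix between shaft keratins, Krtap3-1 alone passed, with 3, 2 and 6 UMIs in HFC (log2 difference 1.73, limma adjusted p = 0.0144).

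In the clusters, some neighbours of the inner root sheath keratins were called higher in HFC and others were not. On chromosome 11 Krt10, the suprabasal type I keratin beyond Krt28, averaged 2420 ± 1146 CPM in HFC against 340 ± 511 CPM in TEC, and it was called higher (log2 difference 3.99, limma adjusted p = 0.00205). Krt28, which lies between Krt27 and Krt10, averaged 4.36 ± 6.25 CPM in HFC and 1.63 ± 4.09 CPM in TEC and did not pass. On chromosome 15 Krt5, the basal type II keratin, averaged 25012 ± 3246 CPM in HFC against 928 ± 1125 CPM in TEC, and its log2 difference was 5.39 (limma adjusted p = 6.56e-08), against 5.68 for Krt71 beside it. Krt72 on the other side of Krt71 averaged 6.94 ± 1.65 CPM in HFC and 2.36 ± 3.87 CPM in TEC and did not pass, nor did Krt73. Levels on these counts of 3' ends were not divided by length, since 1 UMI stands for 1 transcript end.

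**Figure D5:**
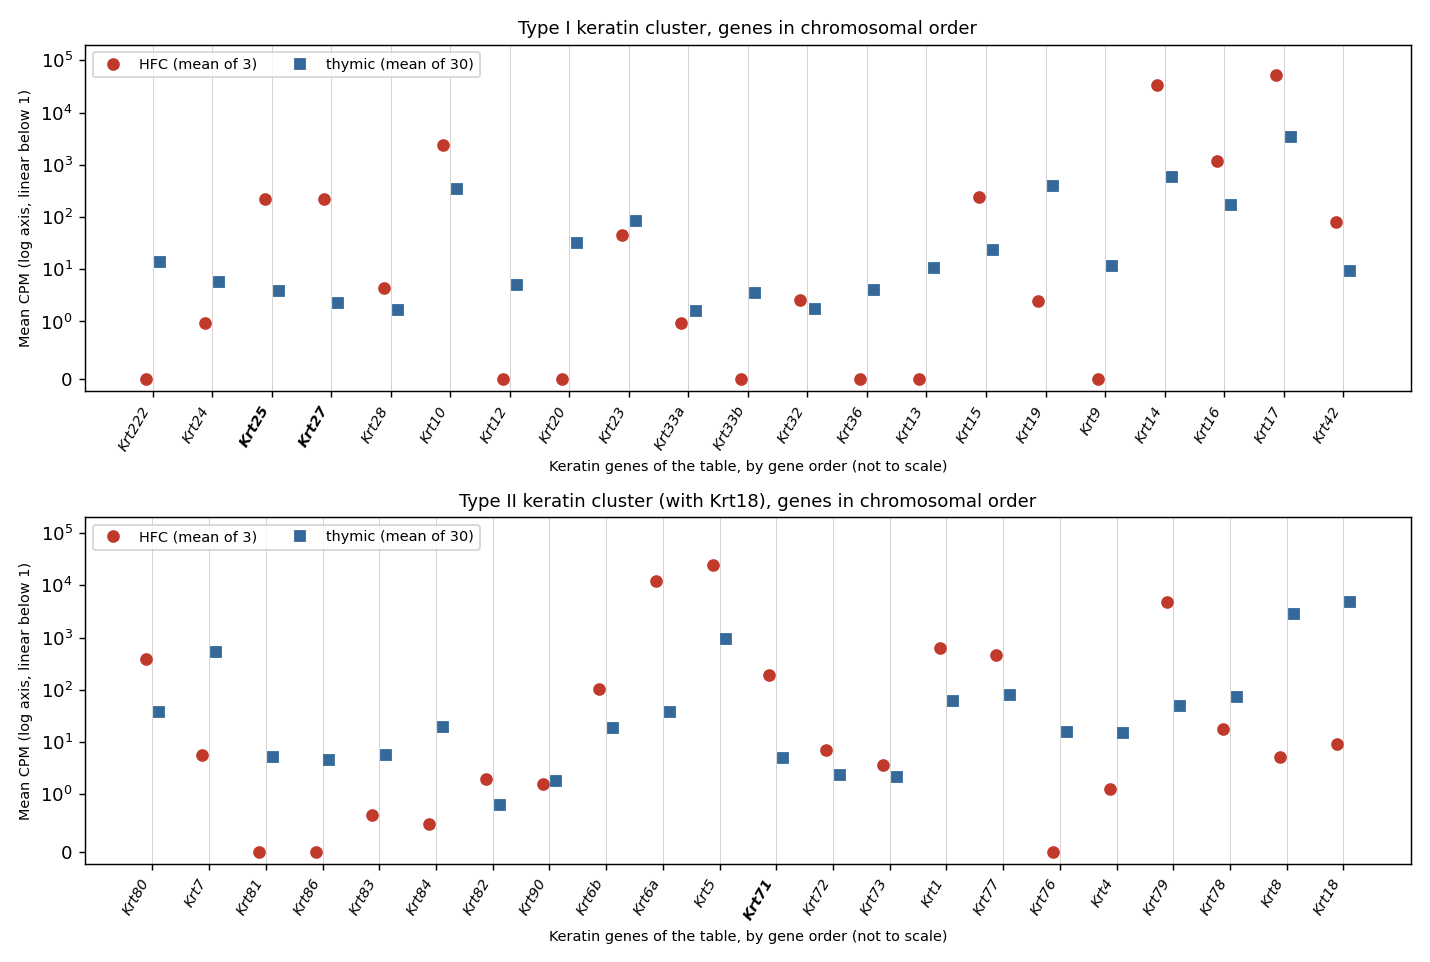
Mean level in CPM (log axis, linear below 1) in HFC (red circles, 3 libraries) and TEC (blue squares, 30 libraries) of the keratin genes in the type I cluster (top) and the type II cluster with Krt18 (bottom), in gene order and not to scale. Krt25, Krt27 and Krt71, in bold, stand at 189 to 223 CPM in HFC beside Krt28, Krt72 and Krt73 at 3.64 to 6.94 CPM. Krt85 was not matched by symbol in the annotation and is not shown.

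Genes of the upper follicle, the outer root sheath and the matrix show the setting of these keratins. Krt79, a keratin of the upper follicle and the sebaceous duct, had 3726, 2236 and 2419 UMIs in HFC (log2 difference 8.002, limma adjusted p = 7.15e-06). Over all genes tested, 4.86% were called higher and 18.4% lower in HFC. Of 12 tested outer root sheath and basal genes 9 were called higher and 1 lower, and of 9 suprabasal genes 5 higher and 0 lower. Of 16 regulators of matrix and shaft 2 were called higher and 3 lower, and the share called lower was near that over all genes. Hoxc13, a homeobox factor that drives hair keratin genes, had 51, 104 and 98 UMIs in HFC against 2 UMIs in all TEC libraries (log2 difference 6.20, limma adjusted p = 6.86e-15). Ovol1, a zinc finger repressor of epidermal progenitors, was also higher (2.81, adjusted p = 0.0112). Foxn1 itself had 6, 17 and 25 UMIs in HFC, 11.5, 26.5 and 36.8 CPM, against 10.1 to 1065 CPM in TEC (log2 difference -2.46, adjusted p = 0.0285). Msx1 and Cux1 were the others called lower. Gata3, a factor needed for the inner root sheath, had 10, 14 and 23 UMIs in HFC (log2 difference 1.004, adjusted p = 0.312), and Lef1, which acts in the matrix, had 0 in all 3. Of 11 cell cycle genes limma called 0, with 1 at an unadjusted p below 0.05, and they summed to 255 to 276 CPM in HFC. Of the genes of other skin cells, melanocyte genes summed to at most 8.83 CPM in any HFC library, with 1 of 4 tested called lower, which is near the share over all genes. Immune cell genes summed to at most 26.5 CPM, with 7 of 9 called lower, and endothelial genes to at most 11.5 CPM, with 6 of 8 called lower.

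In HFC 6938 genes had 5 or more normalized UMIs in at least 2 libraries. Among them, those most like each keratin over the 33 libraries were found by Pearson r of the log2 values. Here r is a measure of likeness with no test. For Krt25 they were Lhx2 (r = 0.853), a homeobox factor of hair follicle stem cells, Npy (0.851), Car6 (0.840), Tmprss7 (0.799) and Krt71 (0.799). For Krt27 they were Hoxc13 (0.846), Casp14 (0.842), a caspase of cornification, Rnase12 (0.835), S1pr5 (0.834) and Celsr2 (0.834). For Krt71 they were Tfap2e (0.930), Irx4 (0.874), Lrat (0.863), Defa24 (0.858), one of a family of similar genes, and AU018091 (0.852). Every HFC library stood above the TEC mean in each of these genes, and how much of r comes from the difference between HFC and TEC was not tested. Krt85 had Ttll3 (0.754), Aloxe3 (0.740), an epidermal lipoxygenase, Map3k6 (0.693), Gata3 (0.677) and Ctsz (0.662), with every HFC library below the highest TEC library for each of the 5.

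Within HFC, likeness was the distance between centred log2 levels over the 3 libraries. It was taken among the 570 genes called higher in HFC with a mean of 20 or more UMIs there. Krt25 and Krt27 were each other's nearest gene, 0.379 log2 units apart, and the next for Krt25 was Atp8a2 at 1.20. The level of Atp8a2 was 21.1, 98.3 and 82.5 CPM in HFC libraries 1, 2 and 3. Krt71 was nearest to Fjx1 (0.0304), Sgk1 (0.0477), a kinase, and Cxcl14 (0.107), a chemokine, ahead of both other keratins of the sheath. Cxcl14 stood at 445, 1345 and 698 CPM in HFC libraries 1, 2 and 3. The profile of Krt85 rests on 1 or 2 UMIs a library and was not read.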

How the data were processed

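RNA of sorted cells was measured in 33 libraries by bulk 3' MARS-seq, per the labels. Software listed in the submitters' processing notes is STAR 2.4.2a, HTSeq, cutadapt, bcl2fastq and DESeq2, with the build mm10; roles and settings were not given. The deposited signal values are the share of each library's UMIs in percent. Dividing by the smallest step gave whole UMIs for 100% of values in 33 of 33 libraries (tolerance 0.01). Reads from near-identical 3' ends cannot be separated in these values.

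Shares were rescaled to the median total of 570253 UMIs, and log2(value + 1) was taken. Genes reaching 5 normalized UMIs in 2 or more libraries were fitted by group with limma 3.58.1 in R 4.3.3 (moderated, intensity trend, two-sided), with Benjamini-Hochberg adjustment over all 14183 genes. HFC were set against the mean over the TEC libraries, all 30 or those of 1 age. The fit took the libraries of a group as independent and did not use the numbers of the titles to pair libraries. Likeness of libraries with the same number was checked only for pairs that included an HFC library. Whether TEC libraries that share a number are related was not tested.

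Count tests on recovered UMIs called 2934 genes with edgeR 4.0.16 and 3848 with DESeq2 1.42.0 where limma called 3304. Other alternatives were the pseudocount, the filter, scaling, robust moderation, grouping of TEC and leaving out libraries, of which leaving out each TEC library was added after the data were seen. The test was also run on simulated data, with the same spread setting for all genes and changes only in the more abundant genes. That setting does not cover genes at 0 UMIs in most TEC libraries. The keratins, gene lists and named-gene rules were chosen with earlier results of these data known. Named were the 4 keratins, all other listed inner root sheath and hair shaft keratins by counts, up to 4 genes per other list by adjusted p, and the 5 genes most like each keratin. Psmb11, Pax1, Lor, Krtdap, Tchh, Gata3, Lef1, Msx1, Krtap3-1, Krt28, Krt72, Krt73, Krt84 and the shaft keratins at 0 were named after their values were seen. Descriptive values used scipy 1.17.1, pandas 2.3.3 and numpy 2.4.6 in Python 3.11.15, and figures matplotlib 3.10.9.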

Additional observations from a re-analysis of the deposited data

Results flagged for a closer look

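In the 6-week groups of 4 libraries, 9 of the 20 pairs of a keratin and a group had 1 library far above the other 3. Groups with 3 libraries at or near 0 reach this easily, even with 1 UMI. The rate of about 1 flag in 20 groups by chance does not apply to them. No share over all genes was taken, so the count of 9 is not read as an excess. For Krt25 these were mTEC2 191 at 19.1 CPM (16 UMIs) and mTEC3 195 at 1.95 CPM (1 UMI), with the other libraries of both groups at 0. For Krt27 they were cTEC 195 at 47.6 CPM (8 UMIs), where the next library stood at 1.64 CPM, and mTEC4 189 at 8.03 CPM (11 UMIs). For Krt71 they were cTEC 191 at 36.1 CPM (22 UMIs), mTEC1 191 at 13.3 CPM (7 UMIs), mTEC2 191 at 11.9 CPM (10 UMIs) and mTEC4 189 at 37.2 CPM (51 UMIs). For Krt85 it was mTEC2 191 at 20.3 CPM (17 UMIs), with the next at 1.25 CPM. Of these 9 values 5 came from libraries numbered 191.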

How the results depend on the processing

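Krt25 and Krt71 kept their direction and their call in all 4 comparisons under every alternative run, leaving out each of the 33 libraries included. Against the 30 TEC libraries their log2 differences ran from 3.76 to 7.33 and from 3.96 to 6.41. Krt27 lost its call with DESeq2 alone, at 8.16 (adjusted p = 0.0927), and at 7.36, 10.3 and 9.39 against 6-week, embryonic and day 6 TEC (0.134, 0.113 and 0.121). Krt85 was not called in any setting that gave it a value; the filter at a mean of 10 left it out, as did the fit of embryonic TEC and HFC alone. Its sign against the 30 TEC libraries turned to 0.04 (0.0367) with a pseudocount of 0.5, to 0.12 with median of ratios scaling and to 0.19 with edgeR, and against 6-week TEC to 0.04 (0.0383) with median of ratios scaling. The cause was not tested.

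Genes called against 30 TEC libraries numbered 3304, of which 689 were higher in HFC and 2615 lower. Median of ratios scaling moved the median of all genes from -0.73 to -0.43 and the split to 1189 and 1726, and edgeR gave 1507 and 1427. Leaving out a library gave 1846 to 3812 calls against the 30 TEC libraries, 1907 to 3920 against 6-week, 1799 to 3193 against embryonic and 1719 to 3191 against day 6 TEC. The low ends all left out an HFC library. Embryonic TEC as 1 group fitted with HFC alone gave 6103 calls, against 2823. A fit with the title number as a replicate block used the HFC, embryonic and day 6 libraries alone. It called 4016 genes against embryonic and 4132 against day 6 TEC, where the fit of all 33 libraries called 2823 and 2837. The block was thus not the only change, and its part was not tested. No TEC library in that fit shares the number of HFC library 3, so HFC library 3 did not enter the difference. Same-numbered pairs of an HFC library and an embryonic or day 6 library correlated at -0.0136 to 0.104, with 1 of 10 above 0.1. The numbers shared by the 6-week libraries were not checked in this way. The fit with the block changed no call of the 4 keratins. Against embryonic and day 6 TEC it gave Krt25 at 4.64 and 5.89 and Krt27 at 5.75 and 5.89. Krt71 stood at 6.32 and 5.55 and Krt85 at 0.998 and -0.46 in that order.

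The ratio of the highest to the lowest HFC library ran from 1.47 to 14.0 for Krt25, 2.09 to 19.0 for Krt27, 1.73 to 3.06 for Krt71 and 1.30 to 2.12 for Krt85 when 1 library was left out. The low ends for Krt25 and Krt27 left out HFC library 1, and the ratio for Krt27 was 9.07 without HFC library 2. Depth limits Krt85, at 1 or 2 UMIs a library in HFC, and the shallow 6-week libraries, where 3 UMIs stand for up to 30.4 CPM.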
